A study of Mus musculus with 10 samples.

Results

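The fate of pyruvate was followed through 10 genes, Pdk1, Pdk2, Pdk3, Pdk4, Ldha, Ldhb, Slc16a1, Slc16a3, Mpc1 and Mpc2, taken by symbol from the 39017 genes of the deposited count table. All 10 had 1 row each, all 10 passed the filter on low counts, and all are protein-coding. The 10 libraries were made from polyadenylated RNA of mouse lung tumours on a C57BL/6 background, in which Trp53 is floxed along with other engineered alleles. Control (KP) libraries carry the genotype label heterozygous fl/wt, whereas the description of the design calls them wild type for Glut1 and the study's methods allow both kinds. Glut1-KO (KPG1) libraries carry the label homozygous fl/fl for Slc2a1, which encodes the glucose transporter Glut1. In every mouse of both groups Cre came from an adenovirus, Ad5CC10-Cre, given through the trachea, and its CC10 promoter restricts recombination to CC10-positive airway cells and their descendants, so that stroma keeps its unrecombined alleles. At 20 weeks and 1 day after initiation tumours were macrodissected and dissociated, and cells carrying CD45 were removed with magnetic beads. The group sizes were 5 control and 5 Glut1-KO libraries. All 5 controls were labelled male, Glut1-KO replicates 1 to 3 female and Glut1-KO replicates 4 and 5 male. No label says whether libraries came from separate animals, and p-values measure the spread between these libraries only.

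Pyruvate is the end product of glycolysis and stands at a branch. Lactate dehydrogenase, a tetramer of the subunits encoded by Ldha and Ldhb, converts it to lactate and back, and lactate crosses the plasma membrane through the monocarboxylate transporters MCT1 (Slc16a1) and MCT4 (Slc16a3). The alternative is entry into mitochondria through the carrier formed by Mpc1 and Mpc2, followed by oxidation in the pyruvate dehydrogenase complex, which the kinases encoded by Pdk1 to Pdk4 switch off by phosphorylation. Ldha, Pdk1 and Slc16a3 are textbook targets of hypoxia-inducible factor (HIF), and Pdk4 is a textbook target of the PPAR receptors and of glucocorticoids.

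Promoters are shown first because 3 members, Ldha, Slc16a3 and Pdk1, are known HIF targets whose levels are set beside those of other such targets further on. Windows were read 5′ to 3′ from RefSeq promoter sequences of build GRCm38.p6, which held all 10 members and 14 start sites, and only the 250 bases before each start are used. Letters in capitals mark the HIF core motifs ACGTG and GCGTG on either strand, together with the E-box CACGTG, which contains ACGTG on both strands and is also read by Myc and other E-box proteins. The windows of 5 members are given, those 3 and, for contrast, the partners Ldhb and Slc16a1, and of the 2 starts of Ldha and of Pdk1 the first is shown.
Ldha, chr7:46845554-46845803, plus strand: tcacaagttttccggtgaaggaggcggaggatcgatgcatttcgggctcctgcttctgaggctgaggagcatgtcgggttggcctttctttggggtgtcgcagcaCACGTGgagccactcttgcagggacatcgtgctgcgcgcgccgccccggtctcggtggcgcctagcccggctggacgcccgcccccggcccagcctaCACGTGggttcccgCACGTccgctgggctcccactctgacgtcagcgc
Slc16a3, chr11:120948817-120949066, plus strand: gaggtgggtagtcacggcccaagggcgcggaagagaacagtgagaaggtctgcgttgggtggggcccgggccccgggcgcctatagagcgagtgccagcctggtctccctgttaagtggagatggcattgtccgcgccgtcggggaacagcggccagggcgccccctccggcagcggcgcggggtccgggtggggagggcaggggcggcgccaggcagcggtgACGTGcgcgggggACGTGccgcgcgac
Pdk1, chr2:71872974-71873223, plus strand: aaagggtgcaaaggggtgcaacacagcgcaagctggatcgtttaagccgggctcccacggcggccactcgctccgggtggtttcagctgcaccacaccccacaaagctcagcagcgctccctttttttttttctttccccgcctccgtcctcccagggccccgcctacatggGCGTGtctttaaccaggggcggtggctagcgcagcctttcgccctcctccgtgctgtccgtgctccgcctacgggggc
Ldhb, chr6:142507958-142508207, minus strand: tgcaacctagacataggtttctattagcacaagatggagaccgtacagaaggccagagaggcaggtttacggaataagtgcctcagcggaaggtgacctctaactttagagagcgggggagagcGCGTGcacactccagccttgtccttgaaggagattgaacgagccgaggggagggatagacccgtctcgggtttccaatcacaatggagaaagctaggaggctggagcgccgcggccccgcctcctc
Slc16a1, chr3:104638414-104638663, plus strand: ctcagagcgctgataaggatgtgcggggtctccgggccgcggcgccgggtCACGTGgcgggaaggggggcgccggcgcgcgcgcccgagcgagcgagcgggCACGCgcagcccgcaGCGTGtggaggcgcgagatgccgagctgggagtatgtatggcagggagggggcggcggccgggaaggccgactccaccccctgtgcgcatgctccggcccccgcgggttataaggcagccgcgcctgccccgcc
The Ldha window held 2 copies of CACGTG and 1 further ACGTG core on the reverse strand, the Slc16a3 window 2 ACGTG cores, the Pdk1 window 1 GCGTG core and the Ldhb window 1 GCGTG core. In the Slc16a1 window there were 1 CACGTG and 2 GCGTG cores. At least 1 core of either kind was present in a window of 10 of the 10 members, and in 11 of their 14 windows, beside 38.6% of the 32851 RefSeq windows of the same length. ACGTG alone was found in 16.6%, GCGTG in 28.2% and CACGTG in 6.02% of all windows. A match describes letters and is not a binding site.

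Libraries held between 35.3 and 49.8 M counts in all, and the lowest count of a member in any library was 228, for Pdk4. Values are given as counts per M scaled by the TMM method (CPM). Slc2a1 went against the label in 2 libraries: it stood at 73.2 to 118 CPM in the controls, at 60.3, 42.5 and 34.6 CPM in the female libraries labelled Glut1-KO (replicates 1, 2 and 3), and, in the 2 male ones (replicates 4 and 5), at 92.4 and 103 CPM. Slc2a3, which encodes Glut3, spanned 102 to 309.6 CPM in the controls and 171 to 680.4 CPM in the Glut1-KO libraries. The deposited names hold an unexplained number that Glut1-KO replicates 4 and 5 share, as do control replicates 1, 2 and 5 and control replicates 3 and 4, so that the 5 control libraries carry 2 such numbers and the 5 Glut1-KO libraries 4. Within the Glut1-KO libraries sex and the Slc2a1 level separate replicates 4 and 5 from the other three, as this shared number does, and these cannot be told apart. Glut1-KO therefore names the label of a library and not its measured Slc2a1 level, and the comparison is also given for the 3 female and the 2 male Glut1-KO libraries on their own. Alveolar type 2 and tumour epithelial markers, such as Sftpc and Nkx2-1, were present in all libraries (summed level of 8 markers 24958 to 67410 CPM). Control replicate 2 stood apart in this respect: it had the lowest such sum, beside 46408 to 67410 CPM in the other controls, the lowest sum of 3 club cell markers (1682 CPM) among the controls, and the highest sum of 6 proliferation markers (430 CPM). The sum of 6 fibroblast markers was 83.6 to 352 CPM in controls and 51.2 to 398 CPM in Glut1-KO libraries. For 6 endothelial markers it was 64.1 to 272 CPM and 104 to 391 CPM, with all 6 at a higher mean in Glut1-KO libraries. Club cell markers summed to 1682 to 9623 CPM and 921 to 6526 CPM, with 0 of 3 at a higher mean in Glut1-KO libraries. Leukocyte markers summed to 982 to 11347 CPM and 1959 to 7899 CPM, with 5 of 8 at a higher mean in Glut1-KO libraries. Among the 8, Ptprc, which encodes CD45, averaged 2.76 CPM in controls and 7.92 CPM in Glut1-KO libraries. Lyz2, which held most of the sum, went the other way, at 6527 and 3626 CPM. The part of these cells in the differences between the groups was not tested. In such bulk samples fewer cells of a type and less RNA per cell cannot be told apart.

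Across the 15922 genes tested, limma passed 0 between Glut1-KO and control at an adjusted p of 0.05 (0%), edgeR passed 0 (0%), and DESeq2 passed 247 of 17676 (1.4%). None of the 10 members passed in any of the 3. At an unadjusted limma p under 0.05 there were 1223 genes (7.68% of those tested) and 1 member, Mpc2. For 293 genes (1.84%) the Glut1-KO and control values did not overlap, and for 0 of the 10 members. The members' log2 fold changes were positive for 6 and negative for 4, with a median of 0.20, beside -0.00492 over all genes tested. The plot of levels by library shows all 100 values.

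**Figure D1:**
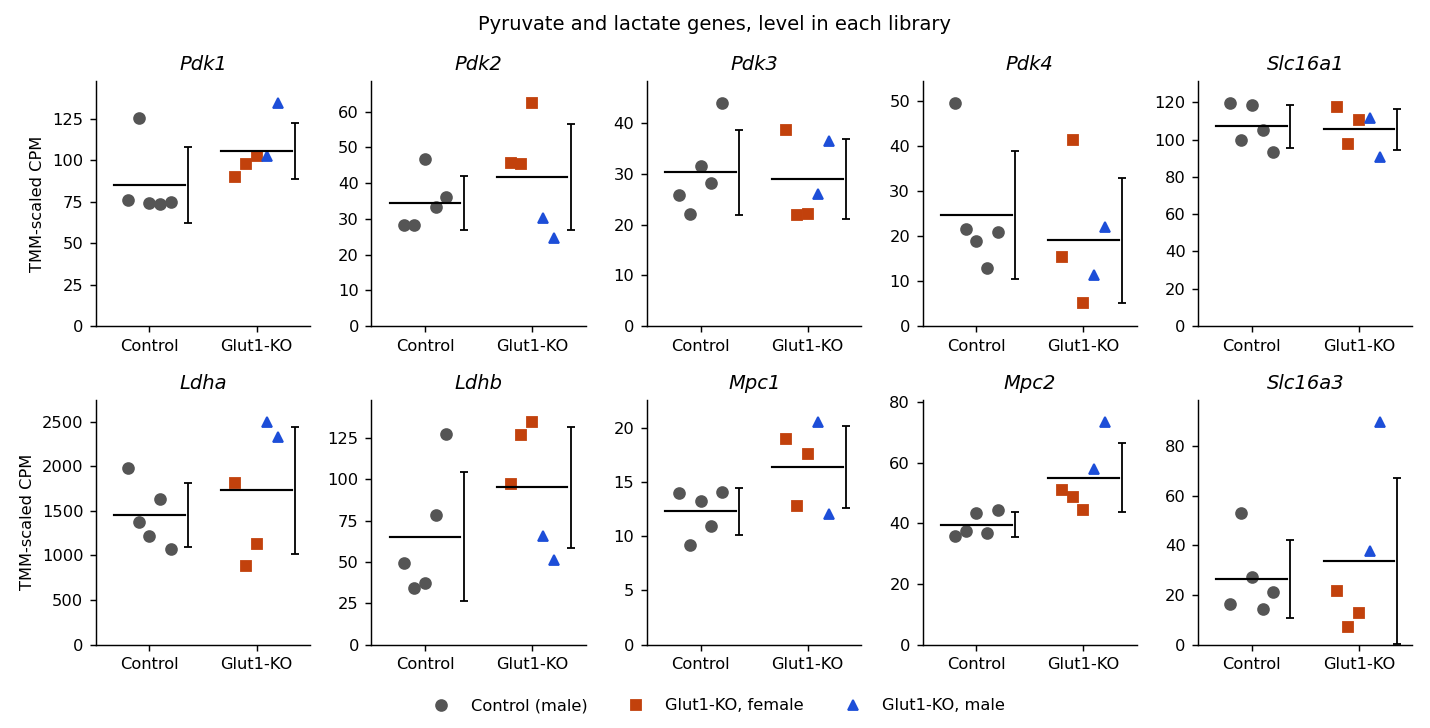
Level of each gene in TMM-scaled CPM (vertical axes, each from 0) in the 5 control and 5 Glut1-KO libraries, with a horizontal bar for the mean, an error bar for the SD, and symbols for the sex on the label. Both groups overlap for every gene, and the male and female Glut1-KO libraries do not overlap for 6 of them (Pdk1, Pdk2, Ldha, Ldhb, Slc16a3 and Mpc2), beside 40.9% of all genes tested.

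The mitochondrial pyruvate carrier was the member pair with the smallest p-values. Mpc2 (chr1:165460637-165481214, plus strand, GRCm38), 1 of the 2 carrier subunits, stood in control replicates 1 to 5 at 35.7, 37.3, 43.5, 36.8 and 44.3 CPM. In Glut1-KO replicates 1 to 5 it stood at 50.9, 48.8, 44.3, 57.8 and 73.5 CPM. Of the 5 Glut1-KO libraries 4 lay above every control, and the exception, replicate 3 at 44.26 CPM, lay just under control replicate 5 at 44.32 CPM. The highest values were those of replicates 4 and 5, the male Glut1-KO libraries, in which Slc2a1 was within the control range. Means were 39.5 ± 4.06 CPM (SD, n = 5) in controls and 55.1 ± 11.4 CPM (SD, n = 5) in Glut1-KO libraries. The log2 fold change was 0.46 (SE 0.15, 95% interval 0.14 to 0.78), with a limma p of 0.00957, the 316th smallest of 15922, and a limma adjusted p of 0.482, so the difference did not pass. A 2-sided exact permutation test that reassigns the libraries in every possible way, for which 0.00794 is the smallest p, gave 0.0159 unadjusted for Mpc2 among 10 such tests. With counts summed over libraries that share a name number the log2 fold change was 0.45, with an unadjusted limma p of 0.0479 and a limma adjusted p of 0.700. For the female Glut1-KO libraries alone, with Slc2a1 below every control, it was 0.28, with an unadjusted limma p of 0.0535 and a limma adjusted p of 0.349.

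Mpc1 (chr17:8282904-8297661, plus strand), the partner subunit without which the carrier does not form, was measured less deeply, from 431 to 787 counts per library. Its levels in control replicates 1 to 5 were 14.05, 9.23, 13.3, 10.96 and 14.1 CPM. Its levels in Glut1-KO replicates 1 to 5 were 19.1, 12.9, 17.7, 20.6 and 12.1 CPM. Glut1-KO replicates 1, 3 and 4 stood above every control, whereas replicates 2 and 5 lay within the control range. The log2 fold change of 0.41 (SE 0.20, 95% interval -0.04 to 0.85) did not pass limma (adjusted p = 0.677), and the exact permutation test gave 0.0794. A processed pseudogene on chromosome 12, Mpc1-ps, took 36.6% to 43.8% of the counts of Mpc1 and its copy together in every library, so that reads of near-identical sequence may be divided between both rows. With both rows summed the log2 fold change of Mpc1 was 0.40. The Mpc1 to Mpc2 ratio of counts lay between 0.247 and 0.393 in controls and between 0.165 and 0.399 in Glut1-KO libraries, with the lowest ratio in Glut1-KO replicate 5, where Mpc2 was highest.

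Among the pyruvate dehydrogenase kinases, Pdk1 had the highest mean difference relative to its error. Pdk1 (chr2:71873224-71903858, plus strand), a HIF target that restrains pyruvate oxidation, stood at 76.2, 126, 74.1, 73.4 and 74.6 CPM in control replicates 1 to 5. In Glut1-KO replicates 1 to 5 it stood at 89.9, 97.7, 102, 103 and 134 CPM. Each Glut1-KO library was above 4 of the 5 controls, and control replicate 2 was above 4 of the 5 Glut1-KO libraries. Between the groups Pdk1 gave a log2 fold change of 0.33 (SE 0.17, 95% interval -0.05 to 0.71, limma adjusted p = 0.687). As single libraries were left out it ran from 0.25 to 0.49. The upper end came without control replicate 2, the library that stood apart in its markers, with an unadjusted limma p of 0.00289 and a limma adjusted p of 0.375. The lower end came without Glut1-KO replicate 5, with an unadjusted limma p of 0.170 and a limma adjusted p of 0.627. The part of the composition of control replicate 2 in the difference was not tested.

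Pdk2 (chr11:95026258-95041354, minus strand), a broadly expressed kinase of the complex, divided the Glut1-KO libraries. Control replicates 1 to 5 held 28.4, 28.2, 46.7, 33.3 and 36.1 CPM. Glut1-KO replicates 1 to 5 held 45.7, 45.3, 62.3, 30.2 and 24.5 CPM. Each of the 3 female libraries was above at least 4 of the 5 controls and the 2 male libraries were among the lower values, with replicate 5 below every control. The log2 fold change over all libraries was 0.23 (SE 0.25, 95% interval -0.32 to 0.78, limma adjusted p = 0.849). Pdk3 (chrX:93764607-93832201, minus strand), the X-linked kinase, ranged from 22.0 to 43.9 CPM in controls and from 21.9 to 38.6 CPM in Glut1-KO libraries. Its log2 fold change of -0.06 (95% interval -0.55 to 0.44) had an interval from 0.682-fold to 1.36-fold in this fit, and it turned positive without control replicate 5 or Glut1-KO replicate 2 or 3.

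Pdk4 (chr6:5483351-5496309, minus strand), the kinase induced by fasting and fatty acids through PPAR receptors, was the most variable of the kinases. It stood at 49.5, 21.6, 18.9, 12.9 and 20.8 CPM in control replicates 1 to 5. It stood at 15.4, 41.3, 5.12, 11.3 and 21.9 CPM in Glut1-KO replicates 1 to 5. The highest library was a control and the lowest a Glut1-KO library, 9.66-fold apart, and the within-group SD of its log2 level, 0.94, exceeded that of 87.5% of genes tested. The fitted difference, a log2 fold change of -0.54 (SE 0.51, 95% interval -1.66 to 0.58, limma adjusted p = 0.820), did not pass, and it ran from -0.91 to -0.12 as single libraries were left out. Per kilobase of principal transcript, Pdk1, Pdk2 and Pdk3 shared most of the kinase signal in the controls, with 30.9 ± 8.39%, 29.0 ± 6.00% and 26.9 ± 6.43% (SD, n = 5), and Pdk4 added 13.3 ± 7.47%. In Glut1-KO libraries the means were 35.3 ± 6.21%, 31.8 ± 10.4%, 23.7 ± 6.15% and 9.25 ± 6.32% in the same order, each within 1 SD of the control mean. Single libraries departed from this order, with Pdk2 at 46.7% in Glut1-KO replicate 3 and Pdk4 at 26.4% in control replicate 1.

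**Figure D2:**
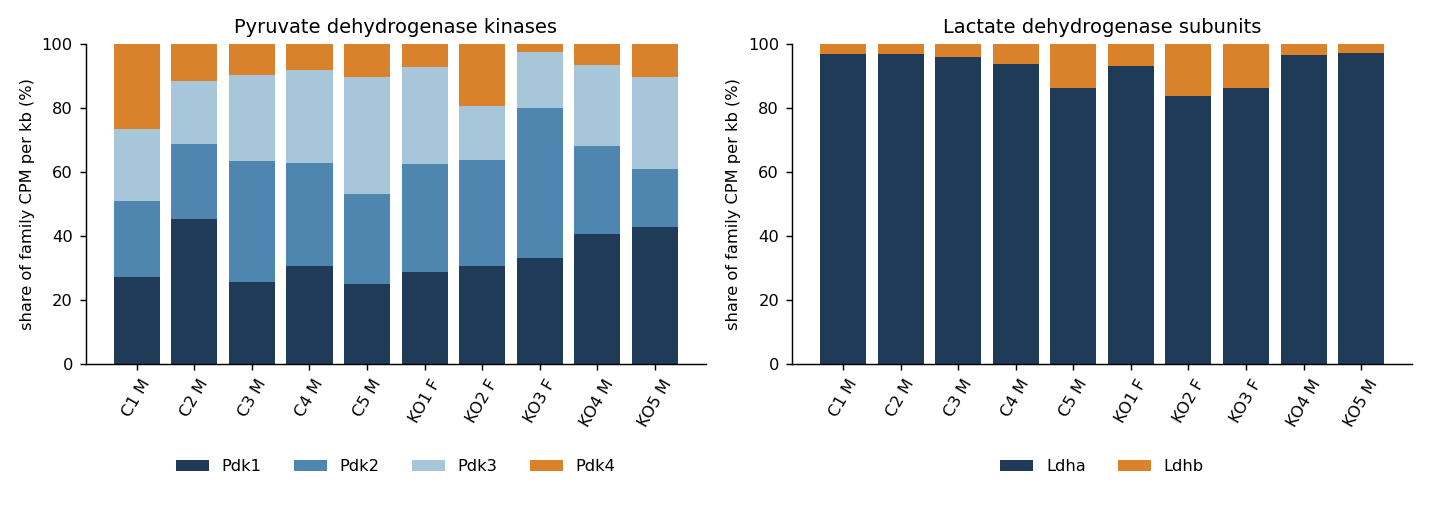
Share of each gene in the summed CPM per kilobase of principal transcript (vertical axes, percent) of the 4 pyruvate dehydrogenase kinases and of the 2 lactate dehydrogenase subunits, 1 bar per library (C, control; KO, Glut1-KO; M and F, sex on the label). Pdk4 runs from 2.47% to 26.4% of its family, and Ldhb from 2.89% to 16.2%.

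Ldha (chr7:46841475-46855627, plus strand), the subunit of the muscle type that favours lactate formation, was the most abundant member. Its levels in control replicates 1 to 5 were 1986, 1373, 1217, 1633 and 1073 CPM. Its levels in Glut1-KO replicates 1 to 5 were 1808, 886, 1133, 2499.5 and 2333.5 CPM. The 2 highest libraries were both male Glut1-KO libraries and the lowest was a female one, so that the Glut1-KO libraries spanned the control range on both sides. Means were 1456 ± 361 CPM (SD, n = 5) in controls and 1732 ± 713 CPM (SD, n = 5) in Glut1-KO libraries, with a log2 fold change of 0.18 (SE 0.30, 95% interval -0.48 to 0.83, limma adjusted p = 0.905). The pseudogene Ldha-ps2 on chromosome 4 took 3.40% to 4.13% of the counts of both, and summing the rows left the log2 fold change at 0.18.

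Ldhb (chr6:142490249-142507957, minus strand), the subunit of the heart type that favours lactate use, showed the highest positive log2 fold change of the members. Control replicates 1 to 5 held 49.6, 34.2, 37.0, 78.6 and 127 CPM. Glut1-KO replicates 1 to 5 held 97.2, 127, 135, 65.4 and 51.2 CPM. Control replicate 5 lay with the 3 female Glut1-KO libraries near the top, and the 2 male Glut1-KO libraries lay within the range of the other 4 controls. The log2 fold change was 0.64 (SE 0.39, 95% interval -0.22 to 1.49), and neither limma (adjusted p = 0.736) nor the exact permutation test (p = 0.190) separated the groups. Against the same controls the log2 fold change was 1.05 for the 3 female and 0.01 for the 2 male Glut1-KO libraries. Control replicate 5 also had the highest sum of 6 ciliated cell markers, 248 CPM beside 9.95 to 86.3 CPM in the other controls and 13.5 to 52.9 CPM in the Glut1-KO libraries, in none of which a marker of that list was at 0 and all 6 of which had a lower mean in Glut1-KO libraries. The part of those cells in the Ldhb level was not tested.

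Counts of Ldha and Ldhb were set against each other because the mix of subunits decides the kind of enzyme formed. The Ldha to Ldhb ratio was 40.0, 40.1, 32.9, 20.8 and 8.44 in control replicates 1 to 5. It was 18.6, 6.99, 8.41, 38.2 and 45.5 in Glut1-KO replicates 1 to 5. The values of the male Glut1-KO libraries sat at the upper end with 3 of the controls, and those of Glut1-KO replicates 2 and 3 sat at the lower end with control replicate 5. On the log2 scale the group means were 4.63 ± 0.95 and 4.17 ± 1.23 (SD, n = 5 each), a difference of -0.46 that did not pass the exact permutation test (p = 0.532, adjusted p = 0.886 over the 5 ratios tested). Ldhb made up 3.27% to 13.8% of the subunit signal per kilobase in controls and 2.89% to 16.2% in Glut1-KO libraries.

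**Figure D3:**
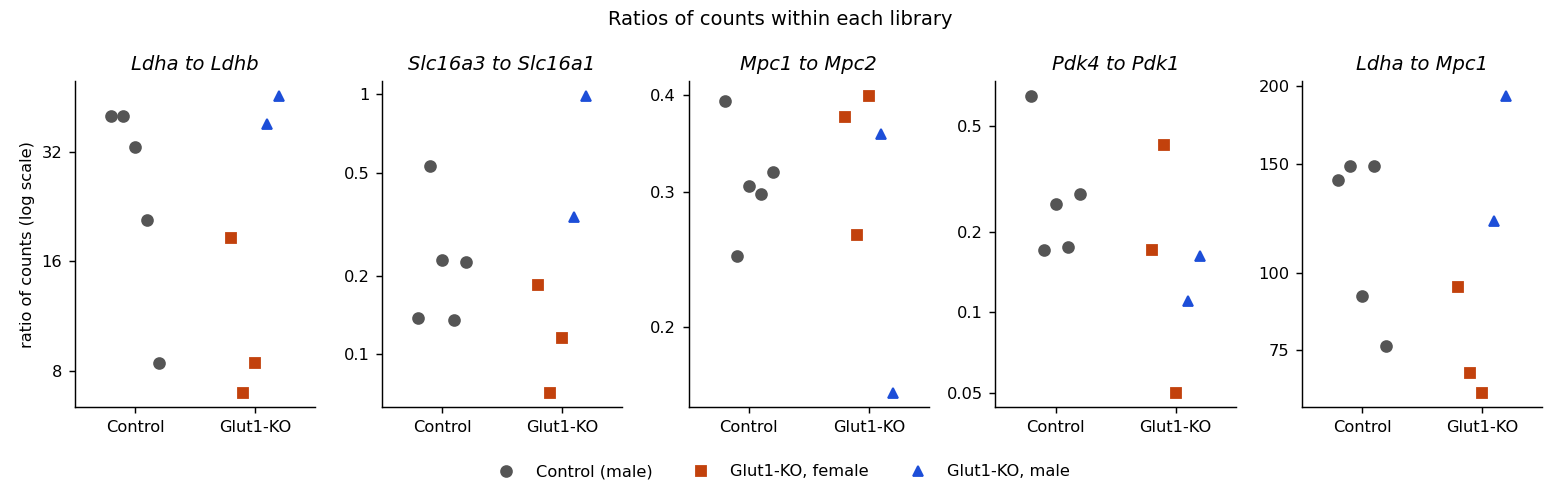
Ratio of counts of 2 genes within each library on log scales, for the 5 ratios tested, in control and Glut1-KO libraries, with symbols for the sex on the label. The Ldha to Ldhb ratio of the 2 male Glut1-KO libraries (38.2 and 45.5) is above that of the 3 female ones (6.99 to 18.6), and both groups overlap in all 5 ratios.

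The plasma membrane transporters differed in how much they varied. Slc16a1 (chr3:104638668-104658462, plus strand), which encodes MCT1, a transporter that moves lactate in either direction, was the steadiest member. It ranged from 93.4 to 119.5 CPM in controls and from 91.0 to 117 CPM in Glut1-KO libraries, and its within-group SD of 0.15 on the log2 scale exceeded that of only 7.51% of genes tested. Its log2 fold change of -0.02 (SE 0.11, 95% interval -0.27 to 0.22) had an interval from 0.829-fold to 1.17-fold in this fit.

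Slc16a3 (chr11:120948480-120960868, plus strand), which encodes MCT4, the transporter linked to lactate export from glycolytic cells, was the least steady. Control replicates 1 to 5 held 16.4, 53.1, 27.2, 14.2 and 21.1 CPM. Glut1-KO replicates 1 to 5 held 21.7, 6.94, 12.8, 37.5 and 89.8 CPM. Of the female libraries replicates 2 and 3 lay below every control, the 2 male ones lay above 4 of the 5 controls, and the extremes were 12.9-fold apart. Means were 26.4 ± 15.7 CPM (SD, n = 5) in controls and 33.7 ± 33.4 CPM (SD, n = 5) in Glut1-KO libraries. Over all libraries the log2 fold change was -0.08 (SE 0.63, 95% interval -1.46 to 1.30, limma adjusted p = 0.986), an interval from 0.364-fold to 2.47-fold in this fit. Its direction was not stable, since edgeR gave 0.35, DESeq2 0.36 and the fit with the replicate block 0.10, and no direction is drawn from it. Glut1-KO replicate 5 and control replicate 2, the 2 libraries with most Slc16a3, also had the highest fibroblast marker sums of their groups, 398 and 352 CPM, with 2 of the 6 markers at a higher mean in Glut1-KO libraries and none at 0, and the part of those cells in the Slc16a3 level was not tested. The Slc16a3 to Slc16a1 ratio of counts was lowest, 0.0711, in Glut1-KO replicate 2 and highest, 0.987, in Glut1-KO replicate 5.

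Levels were compared between genes as CPM per kilobase of the principal transcript. In the controls Ldha led with 825 ± 205 (SD, n = 5), and its lowest library was above every value of any other member. Ldhb followed with 50.1 ± 29.7, Mpc2 with 38.6 ± 3.96 and Slc16a1 with 24.2 ± 2.60, where Ldhb and Mpc2 did not differ beyond their spread and Mpc2 lay above Slc16a1 in each control. Pdk1, Pdk2, Pdk3 and Mpc1 followed with means from 16.4 down to 12.9, and Pdk4 with 7.10 ± 4.09 and Slc16a3 with 6.09 ± 3.63 came last, with overlapping neighbours from Slc16a1 down to Slc16a3. The order depends on the length used: per kilobase of all annotated exons together, Mpc2 fell from the third to the ninth place, at 5.38 ± 0.55.

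None of the 5 ratios passed the test between the groups. Beside Ldha to Ldhb, the differences of the mean log2 ratio were -0.00475 for Slc16a3 to Slc16a1, -0.06 for Mpc1 to Mpc2, -0.88 for Pdk4 to Pdk1 and -0.23 for Ldha to Mpc1. Their exact permutation p-values were 1.0, 0.873, 0.175 and 0.532, and no adjusted p was below 0.873. In 4 ratios the differences over all libraries averaged opposite ones: against the controls the female and the male Glut1-KO libraries gave -0.94 and 1.39 for Slc16a3 to Slc16a1, -1.26 and 0.75 for Ldha to Ldhb, -0.64 and 0.39 for Ldha to Mpc1, and 0.14 and -0.35 for Mpc1 to Mpc2. Leaving out single libraries moved Ldha to Ldhb between -0.84 and -0.11 and Pdk4 to Pdk1 between -1.27 and -0.50. Ldha to Mpc1 moved between -0.47 and -0.0729.

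The libraries labelled Glut1-KO were next divided by the sex on the label, with the controls as the common reference of both comparisons. The 2 male libraries share a name number, the 5 controls carry 2 such numbers, and the fit by sex treated all libraries as separate. If a number marks an animal, the p-values of the comparisons by sex are too small. In the 3 female libraries, in which Slc2a1 was below every control, limma passed 11 of 15922 genes against the controls (0.0691%), 2332 had an unadjusted p under 0.05 (14.6%), and 0 and 2 of the 10 members did. The 2 were Pdk2, with a log2 fold change of 0.58 (SE 0.19, limma adjusted p = 0.240), and Ldhb, with 1.05 (SE 0.38, limma adjusted p = 0.275). For both genes each female library was above 4 controls, and the remaining control, replicate 3 for Pdk2 and replicate 5 for Ldhb, was exceeded by Glut1-KO replicate 3 alone. For 0 of the 10 members the female Glut1-KO and control values did not overlap, beside 9.57% of all genes.

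In the 2 male libraries limma passed 3 genes (0.0188%), 1761 had an unadjusted p under 0.05 (11.1%), and of the members 0 and 4 did. These were Mpc2 with a log2 fold change of 0.73 (SE 0.15, limma adjusted p = 0.188), Ldha with 0.76 (SE 0.30, limma adjusted p = 0.413), Slc16a3 with 1.29 (SE 0.51, limma adjusted p = 0.413) and Pdk1 with 0.50 (SE 0.22, limma adjusted p = 0.439). Ldha and Mpc2 were above every control in both male libraries, beside 17.1% of all genes whose male Glut1-KO and control values did not overlap. The sum of 8 genes of dissociation stress, among them Fos and Jun, was lowest in the same 2 libraries, at 3602 and 3202 CPM beside 4656 to 5458 CPM in the female Glut1-KO libraries and 5134 to 6513 CPM in the controls, with 0 of the 8 at a higher mean in Glut1-KO libraries and none at 0. Its part in these differences was not tested.

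The direct comparison of female with male Glut1-KO libraries passed 8 genes (0.0502%), had 2957 at an unadjusted p under 0.05 (18.6%), and gave 0 and 4 of the members. Slc16a3 was lower in the female libraries by a log2 fold change of -2.25 (SE 0.63, limma adjusted p = 0.140) and Ldha by -0.99 (SE 0.33, limma adjusted p = 0.175). Mpc2 gave -0.45 (SE 0.16, limma adjusted p = 0.191), whereas Pdk2 gave 0.91 in the opposite direction (SE 0.25, limma adjusted p = 0.137). The 3 female and the 2 male values did not overlap for these 4 genes, nor for Ldhb and Pdk1, which makes 6 of the 10 members, beside 40.9% of all genes tested. For the other members the female and male log2 fold changes against the controls were 1.05 and 0.01 for Ldhb, 0.22 and 0.50 for Pdk1, 0.44 and 0.36 for Mpc1, -0.60 and -0.45 for Pdk4, -0.15 and 0.09 for Pdk3 and 0.02 and -0.09 for Slc16a1. The members had no common direction, and none of the differences between the sexes passed the adjustment over all genes.

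**Figure D4:**
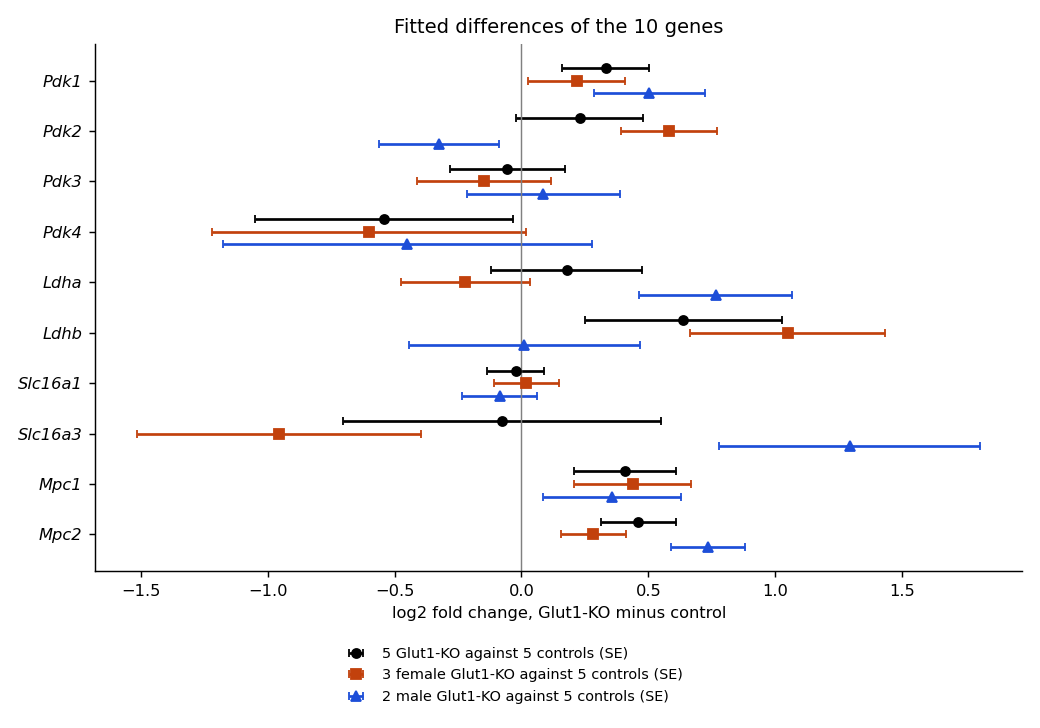
Fitted log2 fold change of each gene (horizontal axis, Glut1-KO minus control; bars, SE) for all 5 Glut1-KO libraries and for the 3 female and the 2 male ones on their own, each against the same 5 controls. The female and male values lie on opposite sides of 0 for Slc16a3 (-0.95 and 1.29), Ldha (-0.22 and 0.76) and Pdk2 (0.58 and -0.33), and on the same side for Mpc2 (0.28 and 0.73).

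Other genes of the pathway, in 6 lists, were read beside the members, chosen for their roles and with earlier results of these data known, and limma passed 0 genes of any of them between Glut1-KO and control. The 8 genes of the pyruvate dehydrogenase complex and its phosphatases, the targets of the kinases and their counterparts, were the most even: 4 were positive and 4 negative, with a median log2 fold change of 0.01. Pdhb, a subunit of the dehydrogenase, gave 0.15 (limma adjusted p = 0.793), Pdpr, a regulator of the phosphatase, 0.15 (limma adjusted p = 0.810) and Pdha1, the subunit that carries the phosphorylated serines, -0.13 (limma adjusted p = 0.881). Of 10 tested enzymes that also make or use pyruvate or lactate, 6 were positive and 4 negative (median 0.08). Pcx, pyruvate carboxylase, averaged 174 ± 73.0 CPM in controls beside 245 ± 40.2 CPM in Glut1-KO libraries (log2 fold change 0.59, SE 0.29, limma adjusted p = 0.677), Ldhd, the D-lactate dehydrogenase, gave 0.48 (limma adjusted p = 0.748) and Gpt, an alanine aminotransferase, 0.33 (limma adjusted p = 0.767). Ldhc and Ldhal6b were not among the genes tested.

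Of the other transporters and chaperones 3 were tested, Bsg, the chaperone basigin that brings MCT1 and MCT4 to the membrane, at -0.08, Emb, the related embigin, at -0.13 and Slc16a7, which encodes MCT2, at 0.03 (median -0.08), with limma adjusted p-values from 0.941 to 0.988. Slc16a8, Slc5a8, Slc5a12 and Hcar1 were not tested. Among 11 regulators known to act on the members, 9 were positive and 2 negative, with a median of 0.21 and 2 at an unadjusted limma p under 0.05, beside 49.3% of all genes positive and 7.68% at that p. Nr3c1, the glucocorticoid receptor, averaged 115 ± 4.21 CPM in controls beside 165 ± 43.9 CPM in Glut1-KO libraries (log2 fold change 0.47, SE 0.17, limma adjusted p = 0.566). Myc, a transcription factor that acts on Ldha and Slc16a1, averaged 65.6 ± 11.9 CPM and 46.8 ± 16.04 CPM (log2 fold change -0.53, SE 0.22, limma adjusted p = 0.616), and Foxo1, an activator of Pdk4, gave 0.38 (limma adjusted p = 0.713). The 9 other PPAR targets split into 5 positive and 4 negative (median 0.16), with 1, Hadha, the alpha subunit of the trifunctional protein of fatty acid oxidation, at an unadjusted limma p under 0.05 (log2 fold change 0.25, adjusted p = 0.635), followed by Cpt1a, the entry step of fatty acid oxidation, at 0.33 (limma adjusted p = 0.664) and Acadm, a medium-chain acyl-CoA dehydrogenase, at 0.25 (limma adjusted p = 0.734).

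The 14 other HIF targets gave a median of 0.11 over all Glut1-KO libraries, with 10 positive and 4 negative and none at an unadjusted limma p under 0.05. Ndrg1 gave 0.55 (limma adjusted p = 0.745), Vegfa, the endothelial growth factor, 0.17 (limma adjusted p = 0.756) and Hk2, a hexokinase, -0.24 (limma adjusted p = 0.768). Divided by sex, the list separated: in the 2 male Glut1-KO libraries 14 of 14 were positive, with a median of 0.62, and in the 3 female ones 2 of 14, with a median of -0.26, beside 7786 and 7829 of 15922 genes positive and medians of -0.01 and -0.01 over all genes. At an unadjusted limma p under 0.05 there were 5 of 14 in the male comparison, all higher, beside 11.1% of all genes, and 2 of 14 in the female one, 1 higher and 1 lower, beside 14.6%. The 5 were Ndrg1 (log2 fold change 1.41) and 4 genes named after their values were seen, Pgk1, the glycolytic phosphoglycerate kinase (1.11), Bnip3, a factor in the removal of mitochondria (0.93), Aldoa, the glycolytic aldolase (0.65), and Egln1, an oxygen-sensing hydroxylase (0.64), with limma adjusted p-values from 0.164 to 0.385. The female against male comparison gave 1 of 14 positive and a median of -0.87, with 8 of 14 at an unadjusted limma p under 0.05, beside 18.6% of all genes, and 0 past the adjusted threshold. Marker sums moved with the same division: the 6 proliferation markers summed to 172 and 189 CPM in the male and to 267 to 304 CPM in the female Glut1-KO libraries, beside 189 to 430 CPM in the controls, with 1 of the 6 at a higher mean in Glut1-KO libraries and none at 0, and the dissociation stress sum was lower in the male ones, as given above. The sum of 5 erythroid markers was 751 and 407 CPM in the male and 189 to 232 CPM in the female Glut1-KO libraries. It was 237 to 1462 CPM in the controls. For 4 striated muscle markers the sums were 8.80 and 3.74 CPM, 1.59 to 1.93 CPM and 3.14 to 29.2 CPM in the same order. The part of these marker sums in the HIF list was not tested. The 2 male libraries share a name number and were treated as separate in these comparisons. The 3 members named above as textbook HIF targets, Ldha, Slc16a3 and Pdk1, were all positive in the male comparison, as this list was, whereas in the female one Ldha (-0.22) and Slc16a3 (-0.95) were negative and Pdk1 was positive (0.22).

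The other lists were read by sex in the same way, again with the controls shared. Of the 11 regulators 8 were positive in the female comparison (median 0.57) and 6 in the male one (median 0.06), with 5 and 2 at an unadjusted limma p under 0.05, beside 14.6% and 11.1% of all genes, and 0 past the adjusted threshold. Myc gave -0.85 in the female libraries (limma adjusted p = 0.117) and -0.04 in the male ones, and the difference between them was -0.81 (limma adjusted p = 0.130). Nr3c1 gave 0.65 (limma adjusted p = 0.186) and 0.20, and Foxo1 0.59 (limma adjusted p = 0.272) and 0.06. Ppara, which encodes a PPAR receptor, gave 1.00 (limma adjusted p = 0.271) and 0.11. Arnt gave 0.33 (limma adjusted p = 0.335) and -0.00737. Both had an unadjusted limma p under 0.05 in the female comparison and were named after their values were seen. The 2 at an unadjusted limma p under 0.05 in the male comparison, named after their values were seen, were Hif1a and Esrra. Hif1a, an oxygen-regulated HIF subunit, gave 0.42 (limma adjusted p = 0.322) in the male and 0.06 in the female libraries. Epas1, which encodes another such subunit, ran the other way by sex and was also named after its values were seen. It gave -0.52 (limma adjusted p = 0.606) in the male and 0.61 (limma adjusted p = 0.391) in the female libraries. Esrra, an orphan receptor that acts on mitochondrial genes, gave 0.55 (limma adjusted p = 0.334) in the male and -0.21 in the female ones. Among the 10 enzymes 5 were positive in the female and 8 in the male comparison (medians 0.04 and 0.30). Pkm, pyruvate kinase, which was also named after its values were seen, gave -0.74 in the female (limma adjusted p = 0.255) and 0.70 in the male libraries (limma adjusted p = 0.439), a difference of -1.44 (limma adjusted p = 0.112). Medians in the female and male comparison were 0.01 and 0.12 for the pyruvate dehydrogenase complex and its phosphatases. They were 0.32 and 0.22 for the PPAR targets and 0.20 and -0.57 for the 3 transporters and chaperones. In these lists 0 genes passed the adjusted threshold. Of the 9 PPAR targets 3 had an unadjusted limma p under 0.05 in the female comparison, 2 of them higher. In the male comparison 1 did, beside 14.6% and 11.1% of all genes in turn. Angptl4, named after its values were seen, gave -0.88 (limma adjusted p = 0.262) in the female and 0.62 in the male libraries. Such counts were 1 and 0 for the dehydrogenase list, 0 and 0 for the transporters, and 2 and 1 for the 10 enzymes.

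**Figure D5:**
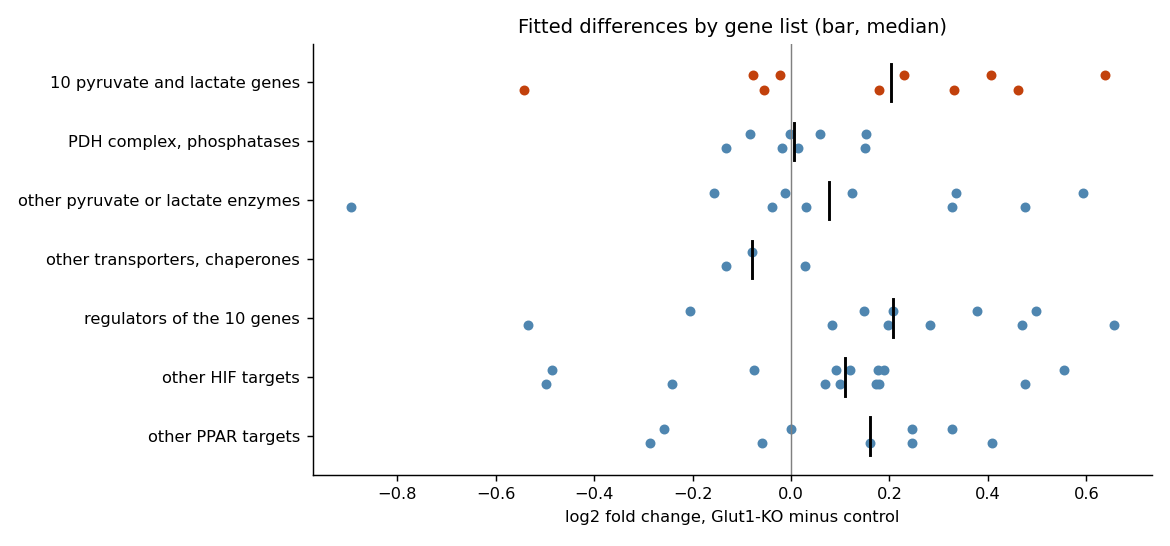
Fitted log2 fold change, Glut1-KO minus control over all 10 libraries (horizontal axis), of each gene of the 7 lists, with a bar at the median of the list. The 10 members run from -0.54 to 0.64 with a median of 0.20, and the pyruvate dehydrogenase complex and its phosphatases stay between -0.13 and 0.15.

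Across the 10 libraries the members did not move as 1 group. Over log2 CPM, Pearson's r was 0.61 between Ldha and Slc16a3 and 0.57 between Pdk1 and Slc16a3, whereas Slc16a3 ran against Ldhb (r = -0.66) and Pdk2 (r = -0.65), and Pdk2 against Ldha (r = -0.65). These are descriptions over 10 libraries that differ in sex and Slc2a1 level, some of which share a name number. The 3 genes most like each member by the same measure included Pfkfb3, an activator of glycolysis, for Pdk1 (r = 0.92), after Fam102a (0.94) and before Mboat2 (0.92). For Ldha they were its pseudogene Ldha-ps2 (r = 0.98), Gm11942 (0.98) and Medag (0.97), and for Ldhb Klhl29 (0.93), 9330160F10Rik (0.91) and Dlk1 (0.91). Mpc2 was most like Fabp4 (r = 0.93), a fatty acid binding protein, then Paqr8 (0.92) and Slc52a2 (0.90), while Mpc1 was most like Coq7 (0.94), an enzyme of ubiquinone synthesis, then Mpc1-ps (0.94) and mmu-mir-6364 (0.92). For Slc16a3 the nearest genes were Vapb (0.98), Rilpl2 (0.96) and Gm16379 (0.94), and for Slc16a1 Extl3 (0.93), Bin3 (0.92) and Nedd8 (0.92). The kinases Pdk2, Pdk3 and Pdk4 were nearest to A530020G20Rik, Arhgap44 and Fbxw9 (0.99, 0.97 and 0.97), to Tfe3, Zfp775 and Uxt (0.94, 0.93 and 0.92), and to Psme4, Dnajc25 and Map3k7 (0.89, 0.87 and 0.87).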

How the data were processed

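RNA of the CD45-negative fraction of lung tumours was sequenced by the authors as stranded, single-end mRNA libraries, trimmed with Cutadapt and aligned to mm10 with HISAT2. The submitters' processing notes name featureCounts 1.4.4. The use of strand and the annotation release are not given in the sources used here. The deposited files hold raw read counts per gene, with no normalization, and the 10 columns of the combined count table equalled the 10 single files. A deposited table of normalized values was not used here. The 10 genes and the gene lists were chosen with earlier results of these data known. Genes were kept with edgeR 4.0.16 filterByExpr (minimum count 10, minimum total 15), counts were scaled by TMM, and limma 3.58.1 was run in R 4.3.3 on voom values (prior count 0.5) with the group as the only term, with Benjamini-Hochberg adjustment over 15922 genes and a threshold of 0.05. The study filtered on a mean of 20 TPM instead, which was run as an alternative. Libraries held 35.3 to 49.8 M counts, and the parts of depth and of the number of libraries in the precision were not tested. Single values were compared by the 2-sided exact permutation test on log2 CPM or on log2 ratios of counts, with adjustment over the 5 ratios. Glut1-KO libraries were divided by sex in 1 limma fit with 3 groups. Genes named were the 10 members, in each list the 3 with the smallest limma p, the 3 genes most like each member, and Slc2a1 and Slc2a3. Pgk1, Bnip3, Aldoa, Egln1, Hif1a, Epas1, Esrra, Pkm, Ppara, Arnt and Angptl4 were added after their values were seen. Sftpc, Nkx2-1, Ptprc, Lyz2, Fos and Jun are examples of marker lists. Positions come from GENCODE M21 on GRCm38. Antisense or overlapping genes of Pdk2 and Mpc1 held at most 9 counts in a library. The fit was also run on simulated counts, with no outcome given here. Alternatives were edgeR's quasi-likelihood test, DESeq2 1.42.0, other scalings and filters, sex, name numbers, a replicate block, leaving out each library and, chosen after seeing the data, adding pseudogene counts. One item of the genotype is not reported here.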

Additional observations from a re-analysis of the deposited data

Results flagged for a closer look

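Within groups of 5 libraries, single values far from the others were sought with Dixon's ratio, the gap to the nearest other value as a share of the whole range, against its 95% critical value, in 32 groups (10 genes, 5 ratios and the total count, in each group). Over the limit were 7 groups. A rate of about 1 in 20 would hold for independent groups of normally distributed values. Here CPM and ratios were used without a log scale and the groups share genes and libraries, so the count cannot be set against that rate. Pdk1 stood at 126 CPM in control replicate 2, with the other controls between 73.4 and 76.2 CPM, and at 134 CPM in Glut1-KO replicate 5, with the others between 89.9 and 103 CPM. The Slc16a3 to Slc16a1 ratio was apart in the same 2 libraries, at 0.531 in control replicate 2 (others 0.136 to 0.229) and at 0.987 in Glut1-KO replicate 5 (others 0.0711 to 0.337). Control replicate 2 also had the highest total, 49.8 M counts beside 40.1 to 41.4 M in the other controls, and the lowest tumour epithelial sum, 24958 CPM beside 46408 to 67410 CPM. Pdk4 stood at 49.5 CPM in control replicate 1, with the other controls between 12.9 and 21.6 CPM, and its ratio to Pdk1 was 0.649 there beside 0.172 to 0.279. The causes were not tested.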

How the results depend on the processing

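No gene of the 10 passed the adjusted threshold in any of the 23 alternative fits, where the smallest adjusted p of a member was 0.137 (Mpc2, DESeq2), and none of the 5 ratios passed in theirs. Mpc1, Mpc2, Pdk1, Ldhb and Pdk4 kept the sign of their log2 fold change in every fit, but not its size: Ldhb fell from 0.64 to 0.0111 with sex as a term and to 0.00940 with male libraries only. All 5 controls are male, so the fit with sex as a term gives the male comparison already reported and is no separate adjustment for sex. Leaving out 1 library gave 0.44 to 0.93 for Ldhb, -0.91 to -0.12 for Pdk4, 0.0110 to 0.39 for Ldha and 0.0598 to 0.42 for Pdk2. For Pdk1 the range was 0.25 to 0.49. Slc16a3 turned positive with edgeR's quasi-likelihood test (0.35), DESeq2 (0.36), sex as a term (1.29), male libraries only (1.29) and the replicate block (0.10), and it fell to the filter of 20 TPM. Pdk2 and Pdk3 reversed with sex as a term (-0.33 and 0.0862) and with male libraries only (-0.33 and 0.0874). With female Glut1-KO libraries only, Ldha (-0.22) and Slc16a1 (0.0254) reversed, and Slc16a1 also with counts summed by name number (0.0118). Ratios reversed with male libraries only (Ldha to Ldhb 0.75, Slc16a3 to Slc16a1 1.39, Ldha to Mpc1 0.39), and Mpc1 to Mpc2 with female Glut1-KO libraries only (0.14) and with means by name number (0.0234). Leaving out 1 library at a time gave -0.17 to 0.0894 for Pdk3 (positive without control replicate 5 or Glut1-KO replicate 2 or 3), -0.0709 to 0.0403 for Slc16a1 (positive without control replicate 1 or 3 or Glut1-KO replicate 2 or 5), -0.59 to 0.36 for Slc16a3 (positive without control replicate 2 or Glut1-KO replicate 2 or 3), -0.55 to 0.40 for Slc16a3 to Slc16a1 (positive without control replicate 2, 3 or 5 or Glut1-KO replicate 1, 2 or 3) and -0.16 to 0.16 for Mpc1 to Mpc2 (positive without control replicate 1 or Glut1-KO replicate 5). The causes were not tested. The count of genes past the threshold, 0 with limma, was 247 with DESeq2, 3 with sex as a term, 1 with male libraries only, 9 with female Glut1-KO libraries only, 2 with counts summed by name number, 0 to 1 when each library was left out (1 without control replicate 3) and 0 otherwise.

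Replicate numbers did not pair the libraries: the deviations of same-numbered libraries correlated by -0.13 to 0.20, over 0.1 in 1 of 5 pairs, and 1 of 5 pairs was the best match. With the replicate block 0 genes passed. The lowest member count was 228, and the comparisons held 5 libraries per group, or 2 male Glut1-KO libraries. The parts of depth and of the number of libraries in the width of the intervals were not tested. Libraries that share a name number may share an animal, which would make the p-values too small: the controls carry 2 numbers and the Glut1-KO libraries 4, and with counts summed by number the unadjusted limma p of Mpc2 rose from 0.00957 to 0.0479.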
